A study of Mus musculus with 125 samples.

Results

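The endothelial cells of the embryonic mouse brain at day 12.5 of gestation (E12.5) were drawn from 1 single-cell RNA-seq library. A barcode was kept when it had at least 200 detected genes and at most 10% of its unique molecular identifiers (UMIs, each a counted transcript molecule) from mitochondrial genes. It also had to carry at least 1 UMI of at least 3 of the 6 endothelial genes Cdh5, Pecam1, Egfl7, Esam, Tie1 and Kdr, and no UMI of Tyrobp, Epcam or Pdgfrb, which mark myeloid, epithelial and mural cells. Of 8310 barcodes in the library, 8248 passed the first 2 limits, 6347 had 3 or more of the 6 genes and 5302 (63.8%) remained. The cells were thus chosen by measured UMIs of these 9 genes, whose own values support nothing here. These 5302 cells were part of 42340 barcodes in the 5 single-cell libraries of the series.

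The study profiled endothelium of several mouse organs by open chromatin, RNA-seq and single-cell RNA-seq. The single-cell libraries are 1 per age, E9.5, E12.5 and E16.5 whole brain and P8 and adult cortex. The labels name no strain, genotype or number of embryos, and no treatment beyond the cell isolation was given for these 5 libraries. The name of the deposited E16.5 matrix gives an age a day later than its label, and the label was followed here. Embryonic brains were dissociated with collagenase, and the P8 and adult cortex with a neural tissue kit, after which CD31-bearing cells were enriched on magnetic beads. CD31 is the product of Pecam1, so the isolation and the selection of barcodes share that gene. Age, brain region and dissociation therefore cannot be told apart in the comparisons with P8 and adult. The labels give one 10x 3′ chemistry for all libraries, whereas the barcodes of E12.5 and E16.5 come from another barcode set than those of E9.5, P8 and adult. Chemistry and age cannot be told apart between these sets. The open chromatin lists set beside these cells came from E12 brain and trunk, of embryos whose dams had tamoxifen at E10.5 and whose vessels were checked for GFP, and the driver line is not given in the sources used here. With 1 single-cell library per age no difference had a replicate check, no test was possible, and intervals cover counting error only.

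Brain vessels form when endothelial cells from the surface plexus sprout into the neural tube under the pull of VEGF and Wnt ligands made by neural progenitors. Wnt signalling through Fzd4, Lrp5 or Lrp6, Adgra2 and Reck stabilises beta-catenin, which acts with Lef1 and related factors to switch on genes of the blood-brain barrier. Barrier endothelium is known for tight junctions, nutrient transporters, little vesicular transport and the loss of Plvap, the protein of the diaphragms that span fenestrae and caveolae.

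The cells carried endothelial transcripts throughout. All 6 rule genes were found in 3589 of them, 5 in 1279, 4 in 335 and 3 in 99, and these counts only restate the rule. Each of 30 other endothelial genes was at 20 CPM or more, where CPM is a gene's UMIs scaled to a library total of 1e6, among them Cldn5 in 99.0%, Ramp2 in 98.6% and Cd34 in 97.2% of cells. The 554 barcodes with none of the 6 genes had a UMI of Cldn5 in 40.8%, of Ramp2 in 24.2% and of Cd34 in 29.6%, at a median of 6496.5 UMIs against 10020.5 in the endothelial cells. The cells just inside the limit differed from the bulk. The 99 cells with exactly 3 genes had 24.7% haemoglobin UMIs and 964 CPM of Cldn5, and the 123 barcodes with exactly 2 genes and none of the excluded genes had 42.5% and 158 CPM. Summed over whole lists, markers of other cells stood at 32.1 CPM for 10 pericyte genes, 13.3 for 10 mesenchymal genes and 32.3 for 10 myeloid genes, against 207, 267 and 6298 in the barcodes without endothelial genes. The 9 choroid plexus genes summed to 56.7 CPM against 726, of which Ttr gave 42.0 and 698. The 11 neural progenitor genes summed to 571 and 570.4 CPM, most of it Dbi (292 CPM), Mdk (148) and Nes (114), while Sox2 and Pax6 were at 0.650 and 0.139. The 10 neuronal genes summed to 173 and 111 CPM, led by Stmn2 at 113. Tyrobp, Epcam and Pdgfrb are at 0 by the rule. Blood transcripts stood at 15448 CPM for 12 erythroid genes and 280.3 CPM for 10 platelet genes, and 193 cells had over 10% haemoglobin or at least 10 UMIs of Pf4 and Ppbp. Scrublet, a doublet caller, marked 7 of 8248 barcodes and none of the 5302 cells, too few to count as a working call, so doublets were kept. Xist alone was seen in 2294 cells, Y-linked genes alone in 1737 and both in 351 (6.62%), so the library held cells of both sexes. E12.5 and E16.5 shared 50 barcodes, 27 of them endothelial in both, and the other libraries shared at most 3 with E12.5.

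The most abundant transcripts were ranked by their CPM. Once mitochondrial, ribosomal protein and haemoglobin genes were set aside, Tmsb4x, an actin-binding peptide, led with 18104 CPM. The 20 leading genes of that ranking held Sparc, a matrix protein of growing vessels, at rank 11 with 2953 CPM. The imprinted gene Mest was at rank 12 with 2824 CPM and the junction gene Cldn5 at rank 18 with 2213 CPM. These levels are UMIs from transcript 3′ ends and are not divided by length. In all, 5716 genes reached 20 CPM. Against the barcodes without endothelial genes, 597 of 6302 genes tested (9.47%) were at least 4-fold higher in the endothelial cells and 415 (6.59%) at least 4-fold lower, a contrast that the rule itself set.

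Barrier transport genes had already left their E9.5 level but were mostly short of their later one. A gene was tested between ages when it had 20 CPM in either library, and was called at a difference of 2-fold or more. Of 16 barrier transporters tested against E9.5, 15 were higher at E12.5 and 0 lower, with a median log2 difference of 3.64. Over all 6288 genes tested in that comparison 18.9% were higher and 9.29% lower, and the median log2 difference was 0.145, a shift of the whole scale that the list values should be read against. All 16 transporters reached 20 CPM at E12.5, so the limit admitted none through E9.5 alone, and the count of 0 lower is partly set by it. Members under 20 CPM at E9.5, such as Slco1c1 and Slc38a5, entered through E12.5 alone and could only be called higher at E12.5. The count of 15 higher is thus partly set by the limit too. Slc16a1, a transporter lower at E12.5 than at E9.5, was under the limit in both libraries. The Wnt target, transcription factor, arterial, tip and transcytosis genes tested against E9.5 likewise all reached 20 CPM at E12.5. Their counts against E9.5 carry the same limit in both directions. Of all calls against E9.5, 67.1% were higher at E12.5 on this scale, 56.3% after scaling by the median ratio, and 56.9% with totals that leave out mitochondrial, ribosomal protein and haemoglobin genes. Against E16.5 the same list ran the other way, with 0 of 20 transporters higher at E12.5 and 15 lower (median -1.58), beside 5.6% and 8.08% of all 6298 genes. Against P8 the count was 0 higher and 14 lower of 20 (median -1.68; all genes 14.1% and 18.6%), and against the adult 1 and 15 of 21 (median -2.26; all genes 23.6% and 29.4%). Of all calls against the adult, 44.5% were higher at E12.5 on this scale and 52.3% with the totals that leave out those 3 kinds of genes, so the direction of the larger share turned, while the transporters were then 2 higher and 15 lower. Of the transporters tested against the later libraries, 16 reached 20 CPM at E12.5. The rest entered through the later library alone and could not be called higher at E12.5. The counts of lower genes are thus partly set by the limit. The Wnt target, transcription factor, arterial, elastic fibre and stress lists likewise held such members. The 4 comparisons share the E12.5 library and are not independent of each other.

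The individual transporters reached their later levels at different ages. Where 5 levels of a gene follow each other, they run in order of age, from the youngest library to the adult, with E12.5 second. Slc2a1, the glucose carrier of barrier endothelium, stood at 278, 1222, 1239, 863 and 5525 CPM from E9.5 to adult. It was 4.39-fold higher than at E9.5, was not called against E16.5 or P8, and was 4.52-fold lower than in the adult. Mfsd2a, a lysolipid carrier that restrains vesicular transport, had 0.146, 115, 501, 824 and 443 CPM from E9.5 to adult. At E12.5 its 95% Poisson interval ran from 113 to 118 CPM, and 31.6% of cells had a UMI, against 3.97% of barcodes without endothelial genes. The E9.5 level of Mfsd2a rested on 6 UMIs, so the 788-fold difference is imprecise. Slco1c1, a thyroxine carrier, had 0.854, 132, 1046, 1688 and 1842 CPM from E9.5 to adult. Slc38a5, a glutamine carrier, had 1.22, 276, 872, 787 and 233 CPM from E9.5 to adult, the highest of these being E16.5. Slc7a5 and Slc3a2, the light and heavy chains of the large neutral amino acid carrier, were at 311 and 932 CPM, against 7.39 and 58.2 at E9.5. Iron export and uptake genes differed in timing. The ferroportin gene Slc40a1 had 3.73 CPM at E9.5, 168 at E12.5 and 422 at E16.5, whereas the transferrin receptor gene Tfrc had 13.0, 50.5 and 129.9 CPM and 1032 at P8.

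The genes of a pair of efflux pumps differed in how close they were to their later level. Abcg2 was at 418 CPM at E12.5, 3.29-fold above E9.5, and was not called against E16.5 or P8. Abcb1a, which encodes P-glycoprotein, had 0.390, 25.5, 111, 285 and 1169 CPM from E9.5 to adult, each library being higher than the one before. Slco1a4, an organic anion carrier, had 5 UMIs in all 5302 cells (0.0773 CPM) and reached 1899.6 CPM in the adult. The monocarboxylate carrier Slc16a1 was the one transporter lower at E12.5 than at each other age, at 16.7, 6.5, 88.1, 1745 and 384 CPM from E9.5 to adult. The plot of levels by age shows these courses on 1 scale.

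**Figure D1:**
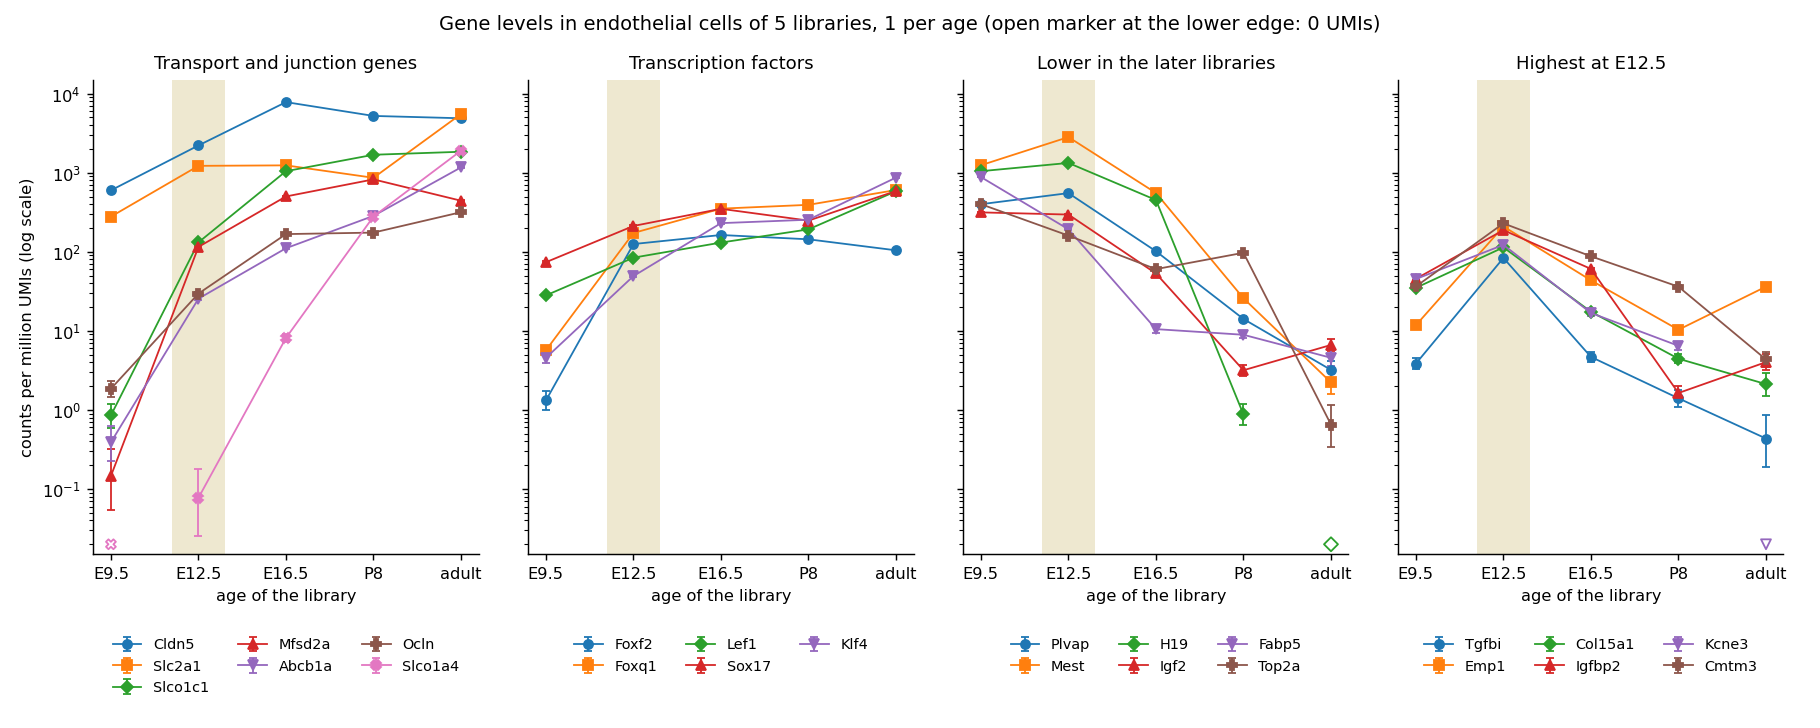
Level of selected genes in the endothelial cells of each library, in CPM on a log scale, against the age of the library; bars are 95% Poisson intervals and an open marker at the lower edge stands for 0 UMIs. The shaded column is E12.5, where Mfsd2a, Slco1c1 and Abcb1a lie between their E9.5 and E16.5 levels and Tgfbi, Emp1, Col15a1, Igfbp2, Kcne3 and Cmtm3, drawn because they met that condition, lie highest.

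The promoters of 3 transporters are shown because open chromatin was called at their starts in E12 endothelial nuclei, the second readout of this stage. Each is the 250 bases before the RefSeq start (build GRCm38.p6), written 5′ to 3′ on the gene's strand. Capitals mark the words CTTTGA, the core bound by Lef1 and its relatives, and GGGCGG, the GC box bound by Sp factors, searched on both strands, and the 2 words did not overlap in these stretches. Mfsd2a lies on the minus strand at chr4:122961189-122961438, Slc2a1 on the plus strand at chr4:119108495-119108744 and Slco1c1 on the plus strand at chr6:141524104-141524353.
Mfsd2a: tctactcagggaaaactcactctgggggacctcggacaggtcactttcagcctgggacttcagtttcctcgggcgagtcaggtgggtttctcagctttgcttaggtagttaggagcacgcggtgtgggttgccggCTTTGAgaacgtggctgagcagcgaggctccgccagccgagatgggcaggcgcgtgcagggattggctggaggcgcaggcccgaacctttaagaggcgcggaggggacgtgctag
Slc2a1: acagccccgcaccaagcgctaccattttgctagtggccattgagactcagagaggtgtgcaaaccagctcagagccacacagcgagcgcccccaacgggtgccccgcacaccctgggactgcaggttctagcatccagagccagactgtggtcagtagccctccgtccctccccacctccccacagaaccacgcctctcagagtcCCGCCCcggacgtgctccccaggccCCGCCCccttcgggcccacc
Slco1c1: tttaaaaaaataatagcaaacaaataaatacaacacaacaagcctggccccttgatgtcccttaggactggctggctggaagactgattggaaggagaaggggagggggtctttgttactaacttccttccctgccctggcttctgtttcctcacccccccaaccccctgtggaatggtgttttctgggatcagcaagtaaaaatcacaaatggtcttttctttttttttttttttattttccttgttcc
The Mfsd2a stretch held 1 CTTTGA, the Slc2a1 stretch 2 GC boxes in their reverse form, and the Slco1c1 stretch neither word. Of 32817 RefSeq starts, 13.8% held CTTTGA and 32.7% GGGCGG in the same window, so the presence of either word describes these letters and no binding. Among 597 starts of genes at least 4-fold higher in the endothelial cells than in barcodes without endothelial genes, 8.38% held CTTTGA and 59.6% GGGCGG, without matching for base composition. The deposited peak over the Mfsd2a start ran 1157, 1449 and 1218 bp in the 3 brain endothelial lists and 980, 354, 915 and 1325 bp in the 4 trunk endothelial lists. In unselected brain nuclei it ran 1410 bp, so its width is not particular to brain endothelium. At the Slco1c1 start the authors' fold over local background was 6.31, 5.26 and 6.90 in brain endothelial nuclei, 2.46 in unselected brain nuclei and 3.50 to 4.44 in trunk endothelial nuclei. At the Slc2a1 start it was 4.64 to 4.77, 5.53 and 4.26 to 5.10 in the same order, and at the Mfsd2a start 3.13 to 3.62, 3.76 and 2.84 to 3.69. These folds are scaled within each list, so they are described side by side and not tested.

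Junction genes were uneven. Of 9 tight junction genes tested against E9.5, 4 were higher at E12.5 and 1 lower, and against E16.5 0 were higher and 5 lower of 10. Over all genes 18.9% were higher and 9.29% lower than at E9.5, and 5.6% and 8.08% against E16.5, so the count of 1 lower is near the background. Cldn5, the main claudin of brain vessels, had 599, 2213, 7818, 5228 and 4883 CPM from E9.5 to adult. Ocln, a tight junction membrane protein, had 1.85, 29.6, 167, 174.9 and 317 CPM from E9.5 to adult. Lsr, a tricellular junction gene, went from 2.78 CPM at E9.5 to 185 at E12.5 and 453 at E16.5, and Jam2 from 0.512 to 41.0 and 121. The scaffold gene Tjp1 had 160.0, 165.2 and 186 CPM in the 3 embryonic libraries and was not called. Cgnl1, a cytoplasmic junction protein, was the member lower at E12.5 than at E9.5 (40.5 against 151 CPM). Cldn1, Cldn3 and Cgn were each under 1 CPM.

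The share of cells with both Plvap and Mfsd2a was higher at E12.5 than in the other 4 libraries. Plvap had 399.8, 552, 102, 14.1 and 3.21 CPM from E9.5 to adult, and at E12.5 91.1% of cells had a UMI against 16.2% of barcodes without endothelial genes. To compare ages, each cell was thinned to 3000 UMIs, which left out 527 cells at E9.5, 226 at P8 and 414 in the adult. After thinning, 58.7% of E12.5 cells had Plvap without Mfsd2a (95% binomial interval 57.3% to 59.99%), 12.4% had both and 7.11% had Mfsd2a without Plvap. The share with both was 0.0430% at E9.5, 4.91% at E16.5, 0.171% at P8 and 0% in the adult (0 of 2436 cells, 95% upper limit 0.151%). The share with Mfsd2a alone was 0% (0 of 4656 cells, upper limit 0.0792%), 57.2%, 83.0% and 68.6% in the same order. Without thinning 28.3% of E12.5 cells had both genes. Within the E12.5 cells the genes were not exclusive. At 4000 UMIs a cell, Mfsd2a was found in 20.4% of the 4124 cells with Plvap and in 27.4% of the 1178 without. Doublets could not be called, and 6.62% of cells had UMIs of both Xist and Y-linked genes. The part of cell pairs and of free RNA in the joint detection was not tested.

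**Figure D2:**
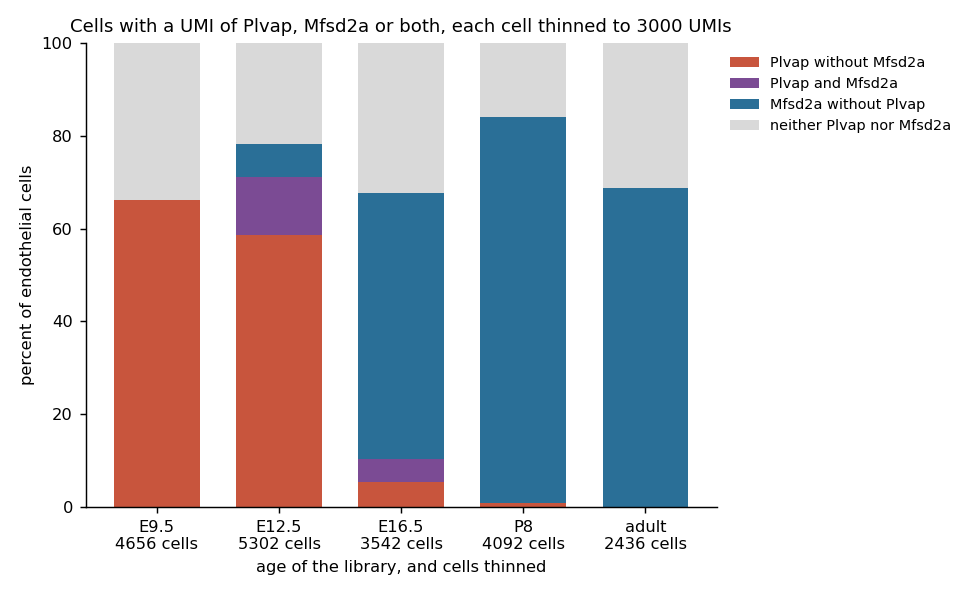
Percent of endothelial cells of each library with a UMI of Plvap alone, Mfsd2a alone, both or neither, each cell thinned to 3000 UMIs; the number of cells is under each bar. At E12.5 the band with both genes is 12.4% of cells, against 4.91% at E16.5.

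Genes of caveolae were also higher than at E9.5. Cav1, the coat protein of caveolae, had 12.2 CPM at E9.5, 281 at E12.5 and 867 at E16.5, and Cav2 had 10.3, 94.5 and 174. Of 10 transcytosis and fenestra genes tested, 8 were higher and 0 lower than at E9.5. Against E16.5, 1 was higher, Plvap, and 7 were lower. Of all genes, 18.9% were higher and 9.29% lower than at E9.5, and 5.6% and 8.08% than at E16.5, so the single higher gene is near the background.

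Among Wnt pathway genes, most targets were higher than at E9.5 and most lower than at E16.5, beside 18.9% of all genes higher than at E9.5 and 8.08% lower than at E16.5. Of 11 receptor and co-factor genes tested, 4 were higher than at E9.5 and 0 lower, and 0 of 9 were called either way against E16.5. The receptor counts are not far from the shares of all genes and are no result about that list. Fzd4, a receptor of brain endothelium, had 33.5, 34.1 and 42.6 CPM at E9.5, E12.5 and E16.5, and 249 in the adult. Adgra2, the co-receptor for Wnt7, had 18.5, 35.0 and 38.6 CPM and was not called. Fzd6 had 2.95 CPM at E9.5 and 48.7 at E12.5, and Tspan12, a partner of Fzd4, had 10.1 and 47.1. Of 10 Wnt target genes tested against E9.5, 9 were higher and 0 lower (median log2 difference 2.19). Against E16.5, 9 of 14 were lower and none higher (median -1.50). Of these 14, 10 reached 20 CPM at E12.5, and the rest could not be called higher at E12.5.

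The targets did not reach their later level together. Lef1, both effector and target, had 28.1, 84.3, 131, 192 and 583 CPM from E9.5 to adult. Nkd1, a feedback inhibitor, had 9.10 CPM at E9.5, 99.3 at E12.5 and 169 at E16.5, and was not called against E16.5, P8 or the adult. Notum, an enzyme that inactivates Wnt proteins, had 3.08 CPM at E12.5 and 98.2 at E16.5, a 31.9-fold difference, and Axin2 had 9.19 and 28.0. Spock2, a matrix proteoglycan, had 0.171, 133, 460.2, 888 and 2541 CPM from E9.5 to adult.

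Most of the transcription factors linked to brain vessels were higher than at E9.5. Of 17 tested, 13 were higher than at E9.5 and 0 lower, and of 21 tested against E16.5, 0 were higher and 10 lower. Of these 21, 17 reached 20 CPM at E12.5, and the rest could not be called higher at E12.5. Over all genes the shares were 18.9% and 9.29% against E9.5, and 5.6% and 8.08% against E16.5. Foxf2, a forkhead factor of brain vessels, had 1.32, 125.3, 163, 144 and 104 CPM from E9.5 to adult, and was not called against any later library. Foxq1 had 5.68, 173, 351, 393 and 604 CPM from E9.5 to adult. The flow-responsive factors Klf2 and Klf4 were lower than at E16.5. Klf2 had 122 CPM at E9.5, 623 at E12.5 and 1660.3 at E16.5, and Klf4 had 4.56, 49.3 and 230.3. Meox2, a homeobox factor known from peripheral vessels, had 14.4 CPM at E12.5 and 1.33 at E16.5, and 0 UMIs in the adult.

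Genes of arteries, veins and sprouting tips were all present. Of 17 arterial genes tested against E9.5, 11 were higher and 0 lower, and of 20 against E16.5, 0 were higher and 7 lower. Gja4, a connexin of small arteries, had 196, 431, 283, 183 and 86.4 CPM from E9.5 to adult, the highest of the 5 values being at E12.5. The Notch ligand Dll4 had 15.3, 64.1 and 119.9 CPM in the embryonic libraries, and the Notch target Hey1 had 24.7, 61.5 and 132. Of the elastic fibre genes, 3 of 5 were higher than at E9.5 and 1 lower, and 1 of 6 was higher than at E16.5 and 4 lower. Beside the 18.9% and 9.29% of all genes against E9.5, and the 5.6% and 8.08% against E16.5, counts of 1 in so short a list are near the background. Eln, elastin, had 0.171, 13.8 and 219.8 CPM, and Emilin1, the one higher than at E16.5, had 108, 76.7 and 24.2. Of the venous genes, Aplnr, the apelin receptor, had 113, 500.2, 371, 263 and 10.4 CPM from E9.5 to adult. Nr2f2, the factor that specifies veins, had 65.7, 70.6 and 62.2 CPM and was called in no comparison.

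Tip genes were mostly higher than at E9.5 and than in the adult. Of 21 tested against E9.5, 14 were higher and 0 lower. Against E16.5, 2 were higher and 2 lower of 22, and against the adult 13 were higher and 1 lower of 21 (median log2 difference 2.80). Over all genes 18.9% were higher than at E9.5 and 23.6% higher than in the adult, and the counts against E16.5 are near the 5.6% and 8.08% of all genes. Apln, the ligand of Aplnr, had 28.6, 146, 195, 312 and 0.326 CPM from E9.5 to adult. Kcne3, a potassium channel subunit, had 45.2, 122, 16.8, 6.47 and 0 CPM from E9.5 to adult. Trp53i11 had 8.15, 142, 156, 68.4 and 2.55 CPM in order of age. Fscn1, which bundles actin in filopodia, had 259, 733, 489, 199 and 0.707.

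Calls in the lists of other vessel signals are read against the 18.9% of all genes higher and 9.29% lower than at E9.5 and the 5.6% and 8.08% against E16.5. Of 14 genes of the VEGF, apelin and Tie systems, 4 were higher than at E9.5 and 0 lower, and 4 were lower than at E16.5. The count higher than at E9.5 is not far from the share of all genes and is no result about the list. Flt1, the decoy receptor for VEGF, had 209.8, 349, 1014, 1258 and 3768 CPM from E9.5 to adult, and Tek, the angiopoietin receptor, had 91.4, 108, 161, 199 and 326 CPM from E9.5 to adult. Of 16 BMP and TGF-beta genes, 6 were higher than at E9.5 and 2 lower. Id1, a BMP target, had 152, 187, 536, 570.0 and 1684 CPM from E9.5 to adult, while the inhibitor gene Smad7 had 35.5, 26.6, 116, 132 and 291 CPM from E9.5 to adult. Of 11 axon guidance genes, 6 were higher than at E9.5 and 0 lower, and 1 of 13 was lower than at E16.5. The single axon guidance gene lower than at E16.5 is likewise at the share of all genes. Robo4, a receptor of endothelium, had 15.98 CPM at E9.5 and 118 at E12.5, and Efna1, an ephrin ligand, had 73.2 and 278. Among fatty acid genes, Fabp4 had 0.927, 49.8, 11.2, 0.390 and 40.0 CPM from E9.5 to adult, whereas Fabp5 had 882, 193, 10.5, 8.92 and 4.57 CPM from E9.5 to adult, so the related carriers differed in direction against E9.5.

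Fetal growth genes separated E12.5 from every later library. Of 14 imprinted growth genes tested, 2 were higher and 2 lower than at E9.5 (median log2 difference -0.13). The counts against E9.5 are not far from the 18.9% and 9.29% of all genes. The counts higher at E12.5 were 8 of 14 against E16.5, 13 of 14 against P8 and 14 of 15 against the adult, with medians of 1.24, 3.09 and 4.08. Of all genes 5.6%, 14.1% and 23.6% were higher in these 3 comparisons. H19, a non-coding RNA, had 1046, 1330.0, 452, 0.877 and 0 CPM from E9.5 to adult. Its neighbour Igf2, a fetal growth factor, had 315, 296, 53.2, 3.18 and 6.63 CPM from E9.5 to adult. Mest had 1244, 2824, 555, 25.8 and 2.23 CPM from E9.5 to adult. Peg3 differed from these, at 502 CPM at E9.5 and 37.9 at E12.5. The fetal RNA-binding gene Igf2bp1 had 172, 64.7, 21.99, 0.0195 and 0.0544 CPM, and the chromatin gene Hmga2 had 479.7, 43.2, 3.28, 0.721 and 0.815.

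Part of the cell division genes were lower than at E9.5, and most were higher than at E16.5. Of the G2/M genes tested, 14 of 45 were lower than at E9.5 and none higher, and 34 of 40 were higher than at E16.5 and none lower. Of the S phase genes, 9 of 39 were lower than at E9.5 and 19 of 34 higher than at E16.5. At E12.5, 40 G2/M and 34 S phase genes reached 20 CPM. The other genes tested against E9.5 entered through E9.5 alone and could not be called higher at E12.5. All those tested against E16.5 reached 20 CPM at E12.5. The counts in both comparisons are thus partly set by the limit. Among all genes 9.29% were lower than at E9.5 and 5.6% higher than at E16.5. Top2a, a topoisomerase of dividing cells, had 400.2, 160.3, 60.4, 97.2 and 0.652 CPM from E9.5 to adult. At 3000 UMIs a cell, 32.2% of E12.5 cells had a UMI of Top2a or Mki67 (95% interval 30.96% to 33.5%), against 67.7% at E9.5, 9.09% at E16.5, 7.82% at P8 and 0.164% in the adult. The share at E12.5 was 52.8% without thinning. Top2a alone was in 47.7% of E12.5 cells and 29.8% of barcodes without endothelial genes, both without thinning, so free RNA or dividing cells of other types can carry it, and no phase was read from these shares.

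Part of the glycolysis genes were lower than at E9.5 and part lower than at E16.5. Of 20 hypoxia and glycolysis genes, 9 were lower than at E9.5 and 3 higher, and 6 of 17 were lower than at E16.5 and 0 higher. In this list 14 genes reached 20 CPM at E12.5, and the others tested could not be called higher at E12.5. The counts of lower genes are thus partly set by the limit. Over all genes 9.29% were lower and 18.9% higher than at E9.5, and 8.08% lower than at E16.5, so the 3 higher genes are no more than the background. Eno1, enolase, had 432 CPM at E9.5, 189 at E12.5 and 433 at E16.5, and was called against both. Ldha, lactate dehydrogenase, had 1420.5, 821 and 1646 CPM and was called against E16.5 only. Gapdh had 1923, 660.0 and 573, lower than at E9.5 and not called against E16.5. Ankrd37, a hypoxia target, had 23.9, 63.3 and 426 CPM.

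Matrix genes were mixed. Of 22 basement membrane genes tested, 5 were higher than at E9.5 and 0 lower, beside 18.9% and 9.29% of all genes, and of 23 tested against E16.5, 3 were higher and 2 lower, beside 5.6% and 8.08%. The count higher than at E9.5 is near the share of all genes. Sparcl1, a matrix glycoprotein, had 41.5, 665 and 1884 CPM, and Serpinh1, the collagen chaperone, had 458, 1573 and 1167. Col18a1, which yields endostatin, had 329, 385 and 135. Col4a1, a collagen IV chain, was not called against E9.5 or E16.5, at 710.3, 439.7 and 592 CPM. Of 10 genes of the interferon, antigen presentation and Ly6 list, 6 were higher than at E9.5 and 2 lower, and 0 were higher than at E16.5 and 3 lower. Lower than at E9.5 were Ifitm1 (23.7 and 6.23 CPM) and Ifitm2 (616 and 203). H2-D1, a class I antigen, had 53.3 CPM at E9.5, 509 at E12.5 and 832 at E16.5. Ly6a, a surface protein of later brain vessels, had 3.46 at E12.5, 184 at E16.5 and 3642 in the adult, and Ly6c1 had 53.4, 666 and 4394.

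Stress and dissociation genes moved with age as well. Of 13 tested, 6 were higher at E12.5 than at E9.5 and 1 lower, whereas 13 of 15 were lower than at E16.5 (median log2 difference -2.05), 11 of 16 lower than at P8 and 12 of 16 lower than in the adult. The shares of all genes lower at E12.5 were 9.29%, 8.08%, 18.6% and 29.4% in order of age, and 18.9% were higher than at E9.5, so the 1 lower than at E9.5 is near the background. In the list 12 genes reached 20 CPM at E12.5, so the others tested could not be called higher at E12.5. Fos, an immediate early gene, had 3.71, 79.6, 583, 503 and 715 CPM, and Hspa1a, a heat shock gene, had 1.02, 4.75, 128, 141 and 751. Summed platelet markers were 811 CPM at E9.5, 280.3 at E12.5 and 34.5 at E16.5, and summed pericyte markers 9.54, 32.1 and 42.9 CPM. Xist, the X inactivation RNA, had 177, 498, 1149.6, 0.0974 and 0.0544 CPM from E9.5 to adult, so the sexes in the libraries differed. The part of stress, of other cells and of the sex mix in the differences between ages was not tested. The plot of gene lists sets the medians side by side.

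**Figure D3:**
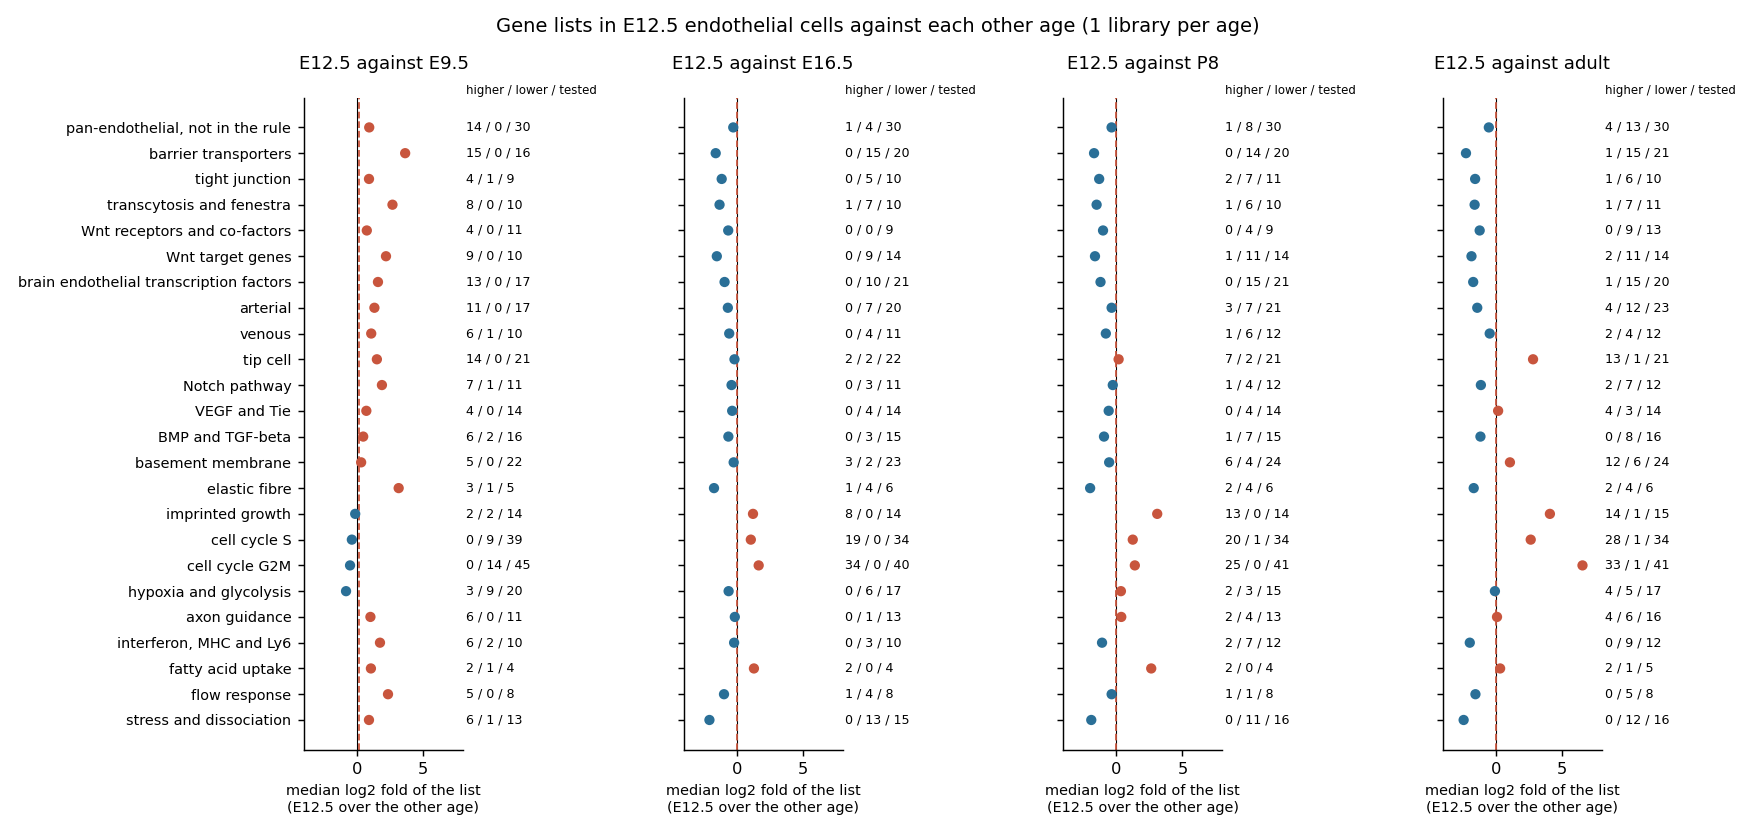
Median log2 difference of each gene list (E12.5 over the other age) for the 4 other libraries, with the numbers of genes at least 2-fold higher, at least 2-fold lower and tested; the dashed line is the median of all tested genes. Barrier transporters lie at 3.64 against E9.5 and -1.58 against E16.5, and imprinted growth genes at -0.13 and 1.24.

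The genes of largest difference from each neighbour in age were named by rank among genes of at least 50 CPM in the higher library. Over E9.5 the leading genes included Ccl21a, a chemokine of lymphatic cells, with 0 UMIs at E9.5 and 136 CPM at E12.5 (at least 1857-fold higher, against 3 counts per library, and uncertain because near-identical copies of the gene share reads), the barrier genes Mfsd2a, Spock2, Slc38a5, Slco1c1, Slc38a3 and Foxf2, and Igfbp7, a matrix-bound growth factor binder, at 8.17 and 1073 CPM. Among the 10 lowest relative to E9.5 were Tagln, an actin-binding protein of smooth muscle, at 101 and 2.91 CPM, and genes such as Hmga2, Peg3, Hapln1 (259 and 19.6) and Lgals1 (811 and 88.9). Over E16.5 the platelet genes Ppbp (56.2 and 0.154 CPM) and Pf4 (164 and 6.66) were 2 of the 10 leading genes, and Pf4 at E12.5 was at 13.6 CPM without the blood-rich barcodes. Other leading genes included Gap43, a growth-associated membrane protein, at 53.1 and 0.742 CPM, and Fabp5, a fatty acid binding protein, at 193 and 10.5. Among the 10 lowest relative to E16.5 were Ly6a, Ildr2, Notum, Ly75, Hspa1a, Eln and Pglyrp1, a peptidoglycan-binding protein, at 75.5 and 1181 CPM, together with the transporter Slc22a8 at 32.3 and 526.

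A small group of genes peaked at E12.5. By a rule added after the values were seen, 17 of 4623 genes (0.368%) with at least 50 CPM at some age were at least 2-fold higher at E12.5 than in each other library, and 16 (0.346%) at least 2-fold lower. Being chosen for that pattern, they are described and not tested. Tgfbi, a matrix protein induced by TGF-beta, had 3.85, 83.6, 4.68, 1.40 and 0.435 CPM from E9.5 to adult. Emp1, a membrane protein, had 11.8, 209, 43.6, 10.3 and 36.3 CPM from E9.5 to adult. Col15a1, a basement membrane collagen, had 35.0, 114, 17.5, 4.44 and 2.12 CPM from E9.5 to adult, and Igfbp2, which binds insulin-like growth factors, had 45.5, 188, 60.7, 1.64 and 4.02 CPM from E9.5 to adult. The others were Kcne3, Cmtm3, Marcksl1, Mmrn1, Mdfi, Tmem255a, Mest, Bgn, Cd302, Arxes1, Pbk, Tspan6 and the platelet gene Ppbp, a leading gene of the megakaryocyte- or platelet-like cluster described below. Among the 16 low genes were Pmp22, at 87.8, 14.1, 40.4, 99.3 and 132 CPM from E9.5 to adult, the carbonic anhydrase gene Car4, at 8.81, 4.35, 65.0, 752 and 635 CPM from E9.5 to adult, and Slc16a1.

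Variation within E12.5 was taken relative to genes of like level. Of 7051 genes with a mean of at least 0.05 UMI per cell after thinning to 4000 UMIs, 116 (1.65%) had a variance over mean at least 2 times the median of like genes. The first 11 were haemoglobin genes, the platelet genes Pf4 and Ppbp, Ttr of choroid plexus and Ccl21a. Next came the arterial matrix genes Eln and Fbln5, then Gja4 and Igfbp7 among others. Leiden clustering of the thinned cells gave 12 clusters of 26 to 1133 cells. Clusters were made from these same genes, so the genes that define them are a description, and sizes are not compared with any group.

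Clusters 1, 2, 3, 5 and 7 differed in barrier and division genes. Cluster 1 (1133 cells, 21.4%, whereas the cluster of highest Gpihbp1 held 10.0% at resolution 1) had few barrier transcripts. It had a mean of 5.68 thinned UMIs over the 21 transporters, 1.28 of Slc2a1 and Mfsd2a in 2.21% of cells. Its leading genes were Gpihbp1, which anchors lipoprotein lipase, Gap43, Meox2, Fabp5, Tmem255a and Fabp4, and Plvap was found in 91.9% of its cells. Cluster 5 (549 cells, 10.4%, whereas the cluster of highest Mfsd2a held 2.15% at resolution 1 and 27.6% at 0.25) stood at the other end with 52.3 transporter UMIs, 14.3 of Slc2a1, 21.5 of Cldn5 and Mfsd2a in 84.2% of cells, while 83.4% of its cells also had Plvap. Spock2, Cxcl12 and Mfsd2a were among its 10 leading genes, and 8 of 10 arterial markers were at least 2-fold higher in it than outside. For no cluster was the share of all genes at this 2-fold limit taken, so such counts are a description. The sums of cluster 5 for pan-endothelial, basement membrane and tight junction genes were also the highest of all clusters. Neither cluster 1 nor cluster 5 was given a cell type name. Cluster 2 (1127 cells) and cluster 7 (309 cells) were cycling-like, with Top2a or Mki67 in 71.7% and 72.5% of cells against 10.5% to 11.1% in clusters 4, 5 and 6. Cluster 7 also carried 33.5 transporter UMIs and Slc38a5 in 71.8% of cells. Cluster 1 had Top2a or Mki67 in 45.3% of cells. Cluster 3 (709 cells) was led by weakly set-apart genes such as Clec1b, Sepp1 and Apoe and remained unnamed.

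Clusters 4, 6, 8 and 10 were set against markers of vessel types. Cluster 4 (610 cells, 11.5%) was tip-like in part, with Angpt2 in 31.6%, Apln in 62.3% and Kcne3 in 51.6% of cells. Of 10 tip markers 5 were at least 2-fold higher in it than outside, so the name rests on part of that list. The 10 markers summed highest in cluster 4, at 8.34 thinned UMIs a cell. The longer list of 24 tip genes used across ages summed to 30.1 in it and was highest in cluster 6, at 35.8. Angpt2 destabilises vessels, and Plaur and Adm were further leading genes. Adm was in 33.4% of its cells and in 4.94% of cluster 1. Cluster 6 (353 cells, 6.66%, whereas the cluster of highest Gja5 held 1.0% at a clustering resolution of 1) was arterial-like, with all 10 arterial markers at least 2-fold higher, Gja5 in 59.5%, Gja4 in 95.8% and Aplnr in 15.9% of cells. Its leading genes were Gkn3, Eln, Fbln5, Bmx, Gja5, Mgp and Dkk2, and it had a mean of 3.42 thinned UMIs of Igf2 and 18.3 of H19 a cell, against 0.488 and 3.11 in cluster 5. Its barrier transporter sum was 16.1, below that of cluster 5. Cluster 8 (232 cells, 4.38%) had Vwf in 66.4%, Fabp4 in 40.5%, Cd36 in 34.5% and Nr2f2 in 59.1% of cells with a transporter sum of 6.24. It had 4 of 9 venous markers at least 2-fold higher, of which Vwf was among its 10 leading genes, and was left unnamed. Cluster 10 (80 cells, 1.51%) was lymphatic-like, led by Pdpn, Ccl21a and Prox1, the factor that sets lymphatic identity, which was in 70.0% of its cells and in at most 4.31% of any other cluster. It had as much Igf2 as cluster 6, at a mean of 3.42 thinned UMIs, and 16.9 of H19.

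The 3 remaining clusters carried transcripts of other cells beside the endothelial genes. Cluster 9 (134 cells) held 88.8% cells with Alas2, the erythroid haem enzyme, and 39.9% haemoglobin UMIs, at a median of 14961.5 UMIs. Cluster 12 (26 cells) was megakaryocyte- or platelet-like, with 69.2% of cells having Pf4 and all 10 markers of that list at least 2-fold higher. Of 10 markers each, 8 of haematopoietic progenitors, 7 of mast cells and 6 of myeloid cells were also at least 2-fold higher. Top2a or Mki67 was in 53.8% of its cells. Cluster 11 (40 cells) had a mean of 19.4 thinned UMIs of choroid plexus markers, of which Ttr gave 18.7, 8.25 of pericyte markers and 2.77 of mesenchymal markers. Among choroid plexus markers 7 of 9 were at least 2-fold higher in it than outside, and among pericyte and mesenchymal markers 9 of 10 each. So were 7 of 10 neuronal, 6 of 11 neural progenitor and 6 of 10 neural crest markers, so the cluster was mixed and not of 1 named type. Its leading genes held the choroid plexus genes Htr2c and Kcnj13, each in 2.5% of its cells, and the cartilage genes Matn1 and Lect1, and Rgs5, the pericyte gene, was in 52.5% of cells. Whether these barcodes hold a pair of cells was not tested. Leaving out the 193 blood-rich cells gave 10 clusters and kept Hbb-y at 758 CPM against 8889 with them.

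**Figure D4:**
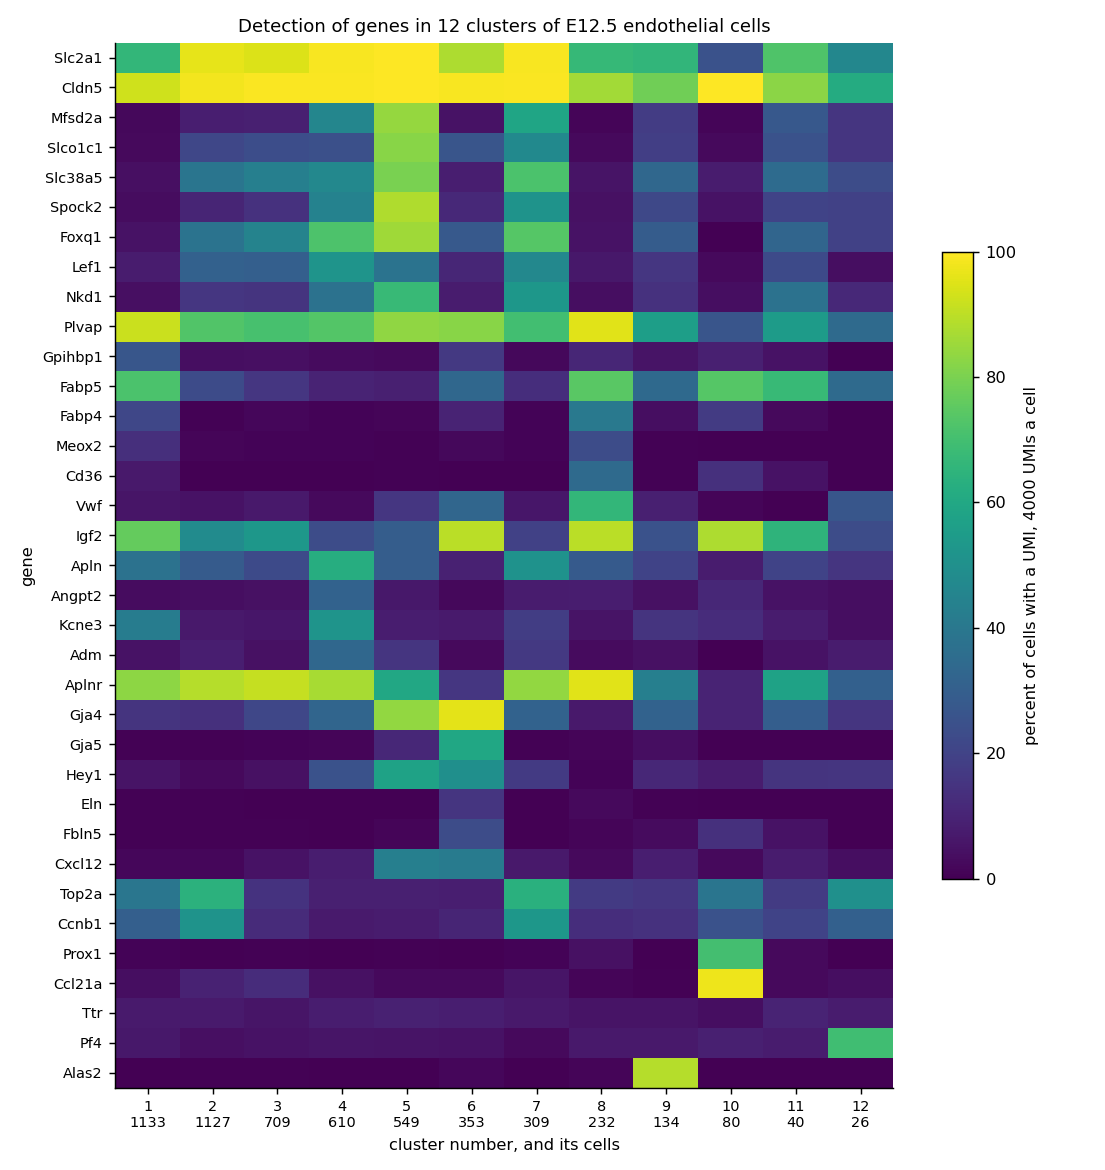
Percent of cells with a UMI of each gene (rows) in 12 clusters of E12.5 endothelial cells (columns, with the number of cells), each cell thinned to 4000 UMIs; lighter colours are higher shares. Mfsd2a is in 84.2% of cluster 5 and 2.21% of cluster 1, while Plvap is in 69.9% to 95.7% of cells in clusters 1 to 8.

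Genes of the lists were found together in single cells to differing degrees. Pairs were taken among list genes present in at least 2% of thinned cells, a limit added after the values were seen, and shares are descriptions of 1 library. Of the 1164 cells with Mfsd2a, 65.3% had Spock2 (95% interval 62.5% to 68.0%) against 12.3% of the other 4138. Lrp8, a lipoprotein receptor, was in 56.4% against 11.96%, and Nkd1 in 55.1% against 12.8%. Among the genes of lowest share ratio, named for that ratio, were Meox2, in 1.03% against 5.75%, Fabp4 in 1.72% against 9.84% and the fatty acid carrier Cd36 in 0.601% against 4.25%. Mfsd2a was in 34.1% of the 1408 cells with Lef1 and 17.6% of the others. Igf2 was set beside the same genes. Of 2806 cells with Igf2, 11.4% had Mfsd2a and 13.9% Spock2, against 33.9% and 35.2% of the cells without, whereas Gja5 was in 9.05% against 2.24%. The arterial gene Gja4 went with Dkk2, a Wnt modulator (12.2% against 0.357%), and Gja5 (17.1% against 0.714%). Apln, which marks sprouting cells, went with Adm (19.4% against 5.86%), Angpt2 (14.2% against 4.5%) and Kcne3 (34.6% against 13.3%). Gja5 was in 1.54% of cells with Aplnr and 20.2% of cells without.

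Open chromatin gave a readout of the same stage that the selection of cells did not use. The peak lists of E12 embryos used here are 3 of brain endothelial nuclei, 1 of unselected brain nuclei (input) and 4 of trunk endothelial nuclei. The series also holds an E12 trunk input, which was not used. Of 27933 gene symbols, 17999 (64.4%) matched a RefSeq start. A peak within 500 bp of a start was found for 65.2% ± 0.200 (SD, n = 3) of matched genes in brain endothelial lists, 66.2% in the input and 63.4% ± 1.65 (SD, n = 4) in trunk endothelial lists. Among genes with no UMI in the E12.5 cells the shares were 15.1% ± 0.377, 18.9% and 13.4% ± 1.68. Among genes of 100 CPM or more they were 98.7% ± 0.0880, 97.6% and 98.5% ± 0.131. Among genes with UMIs but under 1 CPM they were 60.9% ± 0.375, 63.2% and 56.7% ± 3.90.

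In the brain endothelial lists, the class of genes enriched in the endothelial cells differed most from the input. In the trunk lists, genes under 1 CPM did. For the 424 matched genes at least 4-fold higher in the E12.5 endothelial cells than in barcodes without endothelial genes, the share was 97.4% to 98.3% in the 3 brain endothelial lists (mean 97.7% ± 0.545 SD), 90.8% in the input and 94.6% to 97.9% in the 4 trunk lists (mean 96.3% ± 1.35 SD). Brain and trunk lists overlapped through trunk replicate 4, at 97.9%, while the other trunk lists, at 94.6% to 96.5%, lay below every brain list. The difference of 1.43 percentage points gave p = 0.171 in a 2-sided exact permutation test over libraries (n = 3 and 4), which could reach 0.0571 at best. Such a p does not show that the shares are alike. The difference was 0.177 points with an equal number of top peaks per list, and 5.96 with peaks of −log10 q of at least 5. It was 0.865 without trunk replicate 2 and 1.97 without trunk replicate 4 (exact permutation p = 0.3 and 0.1). The brain lists held 101322 to 111142 peaks and the trunk lists 69606 to 107071. File headers name differently processed reads for brain and trunk, so tissue and processing cannot be told apart. Nothing in the gene lists had a start peak in all 3 brain lists and in no trunk list. Of the 424 genes 1 did (0.236%), Utrn, the dystrophin relative, chosen here after its pattern was seen. Of all 17999 matched genes 35 did (0.194%), so this 1 gene is at the background and no result about the 424. Of matched genes at 20 CPM or more, all 6 of the tight junction list and 10 of 12 barrier transporters had a start peak in all 3 brain endothelial lists, and as many had one in all 4 trunk lists. Of all matched genes, 98.6% at 20 to 100 CPM and 98.7% at 100 CPM or more had one in a brain endothelial list on average. The 6 of 6 is near these shares and the 10 of 12 is below them. The counts ask for a peak in all 3 lists, whereas the shares are means over single lists. The measures differ, so the counts are no result about the 2 gene lists. List genes of 20 CPM or more with no start peak in any list were Jund, Kif2c, Nkd1, Nr2f2, Slc22a8 and Slc38a5. For Slc38a5, at 276 CPM, the nearest brain endothelial peak was 583, 10346 and 629 bp from the start in the 3 lists.

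**Figure D5:**
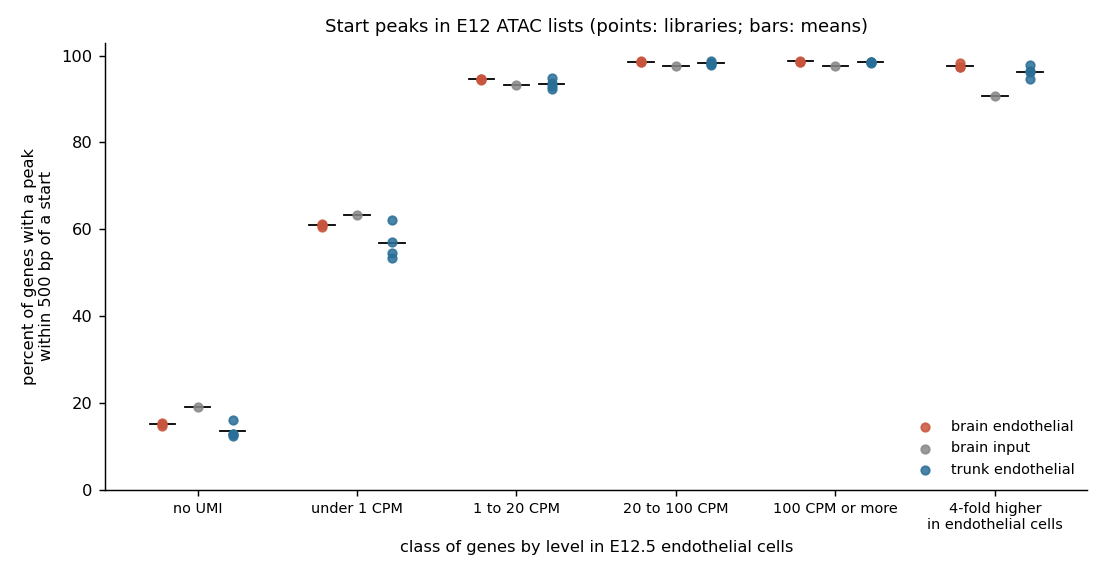
Percent of genes with an ATAC peak within 500 bp of a start, by class of level in the E12.5 endothelial cells; points are libraries and bars their means. Brain endothelial and trunk endothelial points lie together in the classes of 20 CPM or more, and the input point lies lowest, at 90.8%, for the genes 4-fold higher in endothelial cells.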

How the data were processed

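The members, gene lists and comparisons were chosen with earlier results of these data known. The single-cell files hold raw UMI counts per gene and barcode, already filtered by the authors to called cells. Per the submitters' processing notes they were made with Cell Ranger on mm10, and the headers of the E9.5, P8 and adult matrices give version 4.0.0. The E16.5 matrix was used without a gene table of its own, and its 27998 rows were taken in the order of the E12.5 table, since levels correlated at 0.975 in that order and at most 0.21 when shifted.

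Counts were summed over cells and divided by the total, giving CPM with exact Poisson intervals, and shares have exact Clopper-Pearson intervals, both at 95% and for counting error only. E12.5 cells had a median of 10020.5 UMIs (4070 to 58626), and median depth at the other ages was 4690.5 to 8850.5. A gene with 20 CPM in 1 library was called at a 2-fold difference, and summed counts under 3 were set to a floor of 3 for the fold. A tested gene under 20 CPM in either library could only be called higher in the other, so such members lean the counts of a list. Shares across ages were taken at 3000 UMIs a cell and shares within E12.5 at 4000. Clustering used igraph 0.11.9 and leidenalg 0.10.2 with 2000 variable genes, 20 components, 15 neighbours and resolution 0.5, and Scrublet was run through scanpy 1.11.5. Genes were named from the lists and by rank: the 20 of highest level, the 20 of highest relative variance, the 10 of largest fold in each direction per comparison at 50 CPM or more, the 10 leading genes per cluster, and the 5 list genes of largest share ratio for 8 genes. The call rule was also run on counts drawn from the E12.5 profile with planted folds. Such counts hold no differences between libraries, so the run cannot show how sure the calls between ages are.

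Peaks were called by the authors with MACS2 2.1.2 in each library without a control (cuts 0.05 and 0.1), per the file headers. The deposited lists give the signal (pileup of tags), the fold over local background as a ratio, and −log10 p and q values, none scaled between libraries. Shares of genes with a start peak were compared by an exact 2-sided permutation test over libraries, where nothing in the labels says which libraries came from separate embryos. Start positions came from RefSeq. Scripts used Python 3.11.15, numpy 2.4.6, scipy 1.17.1 and pandas 2.3.3. Some genes that the rules for names chose are not reported here. Bulk RNA-seq, the E12 trunk input, and open chromatin of other organs and ages than E12 brain and trunk, were not analysed here.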

Additional observations from a re-analysis of the deposited data

Results flagged for a closer look

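Among the 4 trunk endothelial lists, 1 stood apart in the share of genes without any UMI in the E12.5 endothelial cells that had a start peak. Its share was 15.9%, against 12.3% to 12.8% in the others, and its gap to the nearest list was 0.882 of the group's range. It also held 107071 peaks, against 69606 to 89749. Chance marks about 1 in 20 groups in this way.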

How the results depend on the processing

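Counts of called genes depended on the fold and on the minimum level. A 4-fold limit gave 335 higher and 96 lower genes against E9.5, 59 and 136 against E16.5, 206 and 357 against P8, and 614 and 930 against the adult. With no minimum beyond 3 counts the pairs were 3445 and 2614, 2008 and 2141, 3199 and 3675, and 3763 and 5625. With a minimum of 50 CPM they were 708 and 346, 202 and 307, 580 and 759, and 1127 and 1338. The first and last settings test or call fewer genes by construction, and the second more. The cycling share of 32.2% became 21.1% at 1500 UMIs a cell and 52.85% without thinning, which adds UMIs per cell. Other scalings, a limit of 4 rule genes, and cells without haemoglobin- or platelet-rich barcodes kept the counts of calls within 1.5 times. The alternatives for E16.5 and those that leave out blood-rich barcodes were chosen after seeing the data. Without the blood-rich barcodes Pf4 fell from 164 to 13.6 CPM. Cluster limits moved with resolution: the cluster of highest Mfsd2a held 10.4% of cells, 2.15% at resolution 1 and 27.6% at 0.25, and 8.18% without blood-rich barcodes. The cluster of highest Gja5, arterial-like at 6.66% of cells, held 1.0% at resolution 1 and 6.05% at 0.25, and the cluster of highest Gpihbp1 held 21.4%, 10.0% and 27.2%. The start-peak difference of 1.43 percentage points ranged from 0.865 to 1.97 when 1 library was left out, and from 0.177 to 5.96 over other windows and peak limits. With a replicate block over the 3 shared numbers it was 1.97 (exact permutation p = 0.25, n = 3 pairs), the smallest 2-sided p that its 8 arrangements allow. The labels do not say that these numbers pair the libraries. No paired analysis was possible because there is 1 library per age in the single-cell data.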
